A study of Mus musculus with 4 samples.

Results

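The core pluripotency transcription factors are 10 genes, Pou5f1, Sox2, Nanog, Sall4, Esrrb, Tfcp2l1, Zfp42, Nr0b1, Nr5a2 and Prdm14, chosen by name from a table of 22266 genes. All 10 were found in the table, each as a single row, and all 10 passed the filter on low values (1 TPM or more on average), as did 12029 genes in total. TPM is a share of transcripts corrected for transcript length, so its values can be compared between genes. Poly(A) RNA was sequenced from a single mouse embryonic stem cell line derived from the female line PGK12.1, with Cbx2 floxed and fused to a HaloTag (CBX2fl/fl-HaloTag). Every library came from these cells, kept on gelatin in serum with leukemia inhibitory factor. The EtOH group (n = 2) is the day 0 control, labelled wildtype, and the OHT group (n = 2) is labelled knockout after 1.0 µM 4-hydroxytamoxifen for 48 hours (day 2). The labels name neither the recombinase nor the deleted exons, and no library combined 4-hydroxytamoxifen with intact Cbx2, so the drug, the days in culture and the deletion cannot be told apart. Whether replicates were separate cultures is not labelled, and the p-values therefore cover the spread of these libraries alone, which may be technical.

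OCT4 (encoded by Pou5f1), SOX2 and NANOG bind the enhancers of their own and of each other's genes and thereby hold embryonic stem cells in the pluripotent state. OCT4 and SOX2 bind side by side to a composite site made of an octamer and a SOX motif. Around them stand SALL4, a zinc finger partner of OCT4, the orphan nuclear receptors ESRRB and NR5A2, the atypical receptor NR0B1 (DAX1), which represses nuclear receptors and binds OCT4, and TFCP2L1, a target of LIF and STAT3 signalling. ZFP42 (REX1) is a marker of the naive state, and PRDM14 represses the de novo DNA methyltransferase genes and FGF signalling. CBX2, the deleted protein, belongs to canonical Polycomb repressive complex 1, where it reads histone methylation, and that complex helps to keep developmental genes silent, and the comparison asks how transcripts of the pluripotency factors stood soon after its loss.

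Promoter sequences are shown for the 4 most abundant members. Each of these windows holds a match to a motif named below, as do windows of Nr0b1 and Nr5a2, which are not shown. The sequences come from RefSeq (GRCm38.p6), 250 bases before an annotated start, on the gene's strand. RefSeq starts of Pou5f1, Sox2 and Zfp42 differ from the GENCODE starts given with each gene. Capitals mark the octamer core (TTTGCAT), the SOX motif (ACAATG), the octamer and SOX composite (TTTGCATNACAATG, which contains both), at Zfp42 the full octamer (ATTTGCAT, the core with 1 more base) and the nuclear receptor core site (AGGTCA), each searched on both strands.
Nanog, chr6:122707239-122707488, plus strand: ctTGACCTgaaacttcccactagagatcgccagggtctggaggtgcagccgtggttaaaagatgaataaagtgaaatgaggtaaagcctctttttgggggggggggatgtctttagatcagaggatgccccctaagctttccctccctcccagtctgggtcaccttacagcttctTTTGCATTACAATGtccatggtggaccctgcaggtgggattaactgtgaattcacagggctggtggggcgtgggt
Zfp42, chr8:43307010-43307259, minus strand: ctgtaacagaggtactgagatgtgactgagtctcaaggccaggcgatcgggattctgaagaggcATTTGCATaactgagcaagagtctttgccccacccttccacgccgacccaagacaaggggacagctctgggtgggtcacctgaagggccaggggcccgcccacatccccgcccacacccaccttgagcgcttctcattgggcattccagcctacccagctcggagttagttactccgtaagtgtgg
Sox2, chr3:34649745-34649994, plus strand: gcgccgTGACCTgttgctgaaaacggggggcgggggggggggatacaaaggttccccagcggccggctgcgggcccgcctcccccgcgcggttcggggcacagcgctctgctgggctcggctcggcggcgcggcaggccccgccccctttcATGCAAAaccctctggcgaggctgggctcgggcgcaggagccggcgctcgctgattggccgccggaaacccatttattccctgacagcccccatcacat
Pou5f1, chr17:35505782-35506031, plus strand: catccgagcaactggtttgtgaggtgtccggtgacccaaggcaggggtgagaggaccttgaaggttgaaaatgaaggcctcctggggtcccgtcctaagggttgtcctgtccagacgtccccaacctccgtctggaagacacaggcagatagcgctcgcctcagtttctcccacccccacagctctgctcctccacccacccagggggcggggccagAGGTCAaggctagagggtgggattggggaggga

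The Nanog window held the composite from 75 to 62 bases before its first RefSeq start. That pattern occurred in 2 of 32851 windows of this length, both of them Nanog's (2 starts that lie close together). Its letters were written down after the Nanog sequence had been read, so the count describes the window and tests nothing. The full octamer ATTTGCAT, present in 1.60% of all windows, was found among the members at Zfp42 alone, from 186 to 179 bases before the start. Sox2 held the octamer core on the opposite strand, from 99 to 93 bases before the start, and 4.12% of all windows hold that core. The core site AGGTCA, present in 14.0% of windows, lay from 33 to 28 bases before the first start of Pou5f1 and also occurred before Nanog, Sox2, Nr0b1 and Nr5a2. The SOX motif alone, in 10.7% of windows, was found before Nanog and before the second start of Pou5f1. The longer form TCAAGGTCA, which ESRRB and NR5A2 recognise, was in none of the 12 members' windows and in 0.387% of all windows. Windows were matched by symbol for 8 members, without Sall4 and Prdm14. A match of letters is a description of the sequence and no measurement of binding.

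**Figure D1:**
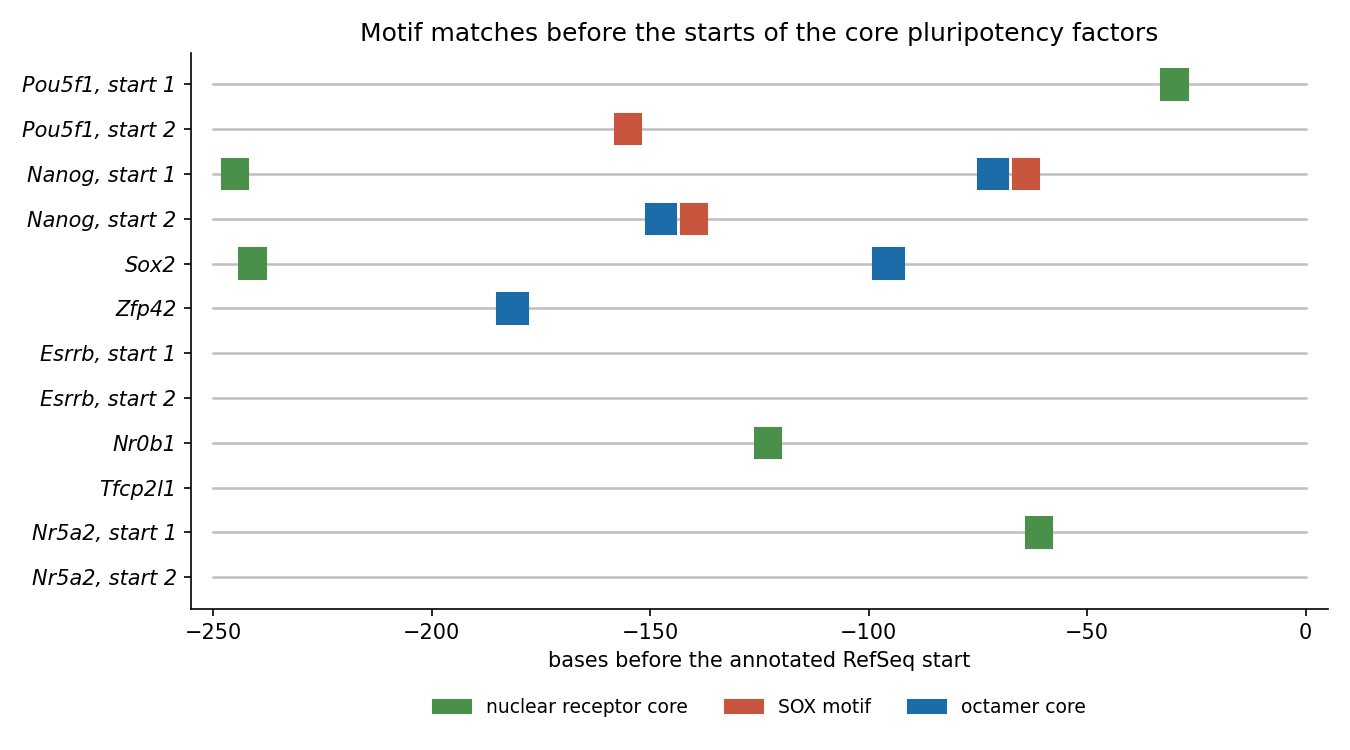
Motif matches in the 12 windows of 8 members, each grey line being the 250 bases before a RefSeq start (x axis, bases before the start) and each box a match on either strand. Octamer core and SOX motif stand side by side only before Nanog, and the windows of Esrrb, Tfcp2l1 and the second start of Nr5a2 hold none of the 3 motifs drawn.

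Cbx2, the gene labelled as knocked out, read lower in the OHT group but was still read there. CBX2 protein is not measured by these libraries. Cbx2 read 2.29 and 2.71 TPM in the EtOH pair, against 0.749 and 1.14 TPM in the OHT pair (log2 difference -0.85, SE 0.19), with a limma adjusted p of 0.265. The depth of the libraries is unknown, since TPM does not keep it. OHT replicate 2 stood above OHT replicate 1 for longer transcripts across the table (below), and this trend touches several members.

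Levels of the 10 factors spanned a wide range, from 23.9 to 2229 TPM. Pou5f1 was the most abundant in each library, between 1856 and 2229 TPM, and ranked between 79 and 101 among all genes. Nanog followed at 966 to 1131 TPM, then Sox2 at 439 to 466, Zfp42 at 403 to 443, Esrrb at 177 to 295 and Sall4 at 119 to 145 TPM. Nr0b1 read 75.6 to 82.7 TPM, Tfcp2l1 39.6 to 82.5, Nr5a2 23.9 to 40.3 and Prdm14 26.9 to 36.4 TPM. Over the 4 libraries the ranges of neighbours in this order were separate from Pou5f1 down to Sox2 and from Zfp42 down to Nr0b1. They overlapped between Sox2 and Zfp42, Nr0b1 and Tfcp2l1, Tfcp2l1 and Nr5a2, and Nr5a2 and Prdm14. The first 6 places were held by the same genes in all 4 libraries, and below them Tfcp2l1 passed Nr0b1 in OHT replicate 2 and Prdm14 passed Nr5a2 in OHT replicate 1. Summed TPM of the 10 came to 4190 and 4239 in the EtOH pair against 4623 and 4813 in the OHT pair, between 0.419% and 0.481% of all transcripts, and Pou5f1 and Nanog together made up 66.9% to 70.9% of that sum.

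**Figure D2:**
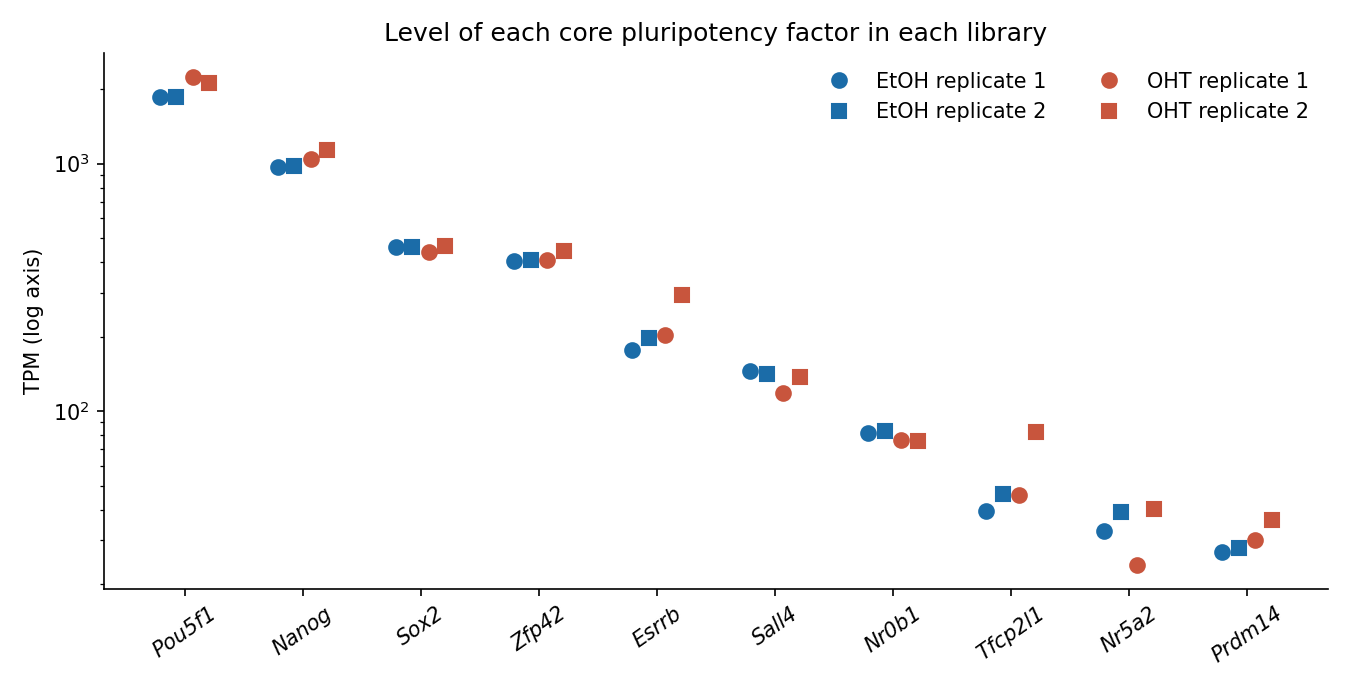
TPM of each factor (y axis, log scale) in the 2 EtOH libraries (blue) and the 2 OHT libraries (red), circles for replicate 1 and squares for replicate 2, genes ordered by mean level. The widest gaps between OHT points are those of Tfcp2l1, Nr5a2 and Esrrb, which also have the widest gaps between EtOH points.

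None of the 10 factors passed the test between groups. By limma's moderated test on log2(TPM + 1), with Benjamini-Hochberg adjustment over 12029 genes and a threshold of 0.05, 0 of 10 were called, where 0.0416% of all tested genes were. Adjusted p-values ran from 0.430 for Pou5f1 to 0.944 for Sox2. At an unadjusted p under 0.05 stood 1 of 10, Pou5f1, where 10.5% of tested genes did. That count depended on the scaling, with 4 of 10 under quantile normalization (14.6% of tested genes) and 6 of 10 once trends in length and GC content were removed (22.1%). With median of ratios scaling it was 1 of 10 (15.1% of tested genes), and with robust moderation 1 of 10 (10.4%). Without limma's mean-variance trend it was 0 of 10 (10.8%), and with the replicate number as a block 2 of 10 (13.7%). The median log2 difference (OHT minus EtOH) of the members was 0.12, beside 0.023 for all tested genes. In 5 members each OHT library lay above the EtOH pair, as in 23.1% of tested genes, in 2 they lay below, as in 19.4%, and in 3 the groups overlapped. The members were picked with results of these data known, so these counts describe them and are no test. In bulk RNA, a smaller share of pluripotent cells and less of an mRNA per cell cannot be told apart.

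Pou5f1 (chromosome 17, 35506018 to 35510772, plus strand, GRCm38; protein-coding) was the member with the smallest p. It read 1856 and 1862 TPM in the EtOH libraries and 2229 and 2106 TPM in the OHT libraries, or 1859 ± 4.23 against 2167 ± 87.2 TPM (SD, n = 2 each). The groups did not overlap, and OHT stood at 1.17 times the EtOH mean (log2 difference 0.22, SE 0.080, limma adjusted p = 0.430). Nanog (chromosome 6, 122707489 to 122714633, plus strand) read 966 and 975 TPM in the EtOH libraries and 1047 and 1131 TPM in the OHT libraries, again without overlap and at a ratio of 1.12 (log2 difference 0.16, SE 0.084, limma adjusted p = 0.561). Sox2, a single-exon gene (chromosome 3, 34650405 to 34652461, plus strand), read 462 and 461 TPM in the EtOH libraries and 439 and 466 TPM in the OHT libraries. The OHT libraries of Sox2 fell on either side of the EtOH pair (log2 difference -0.028, SE 0.085, limma adjusted p = 0.944), and the sign turned to 0.028 under quantile normalization. The ratio of Pou5f1 to Sox2 transcripts came to 4.02 and 4.04 in the EtOH pair against 5.07 and 4.52 in the OHT pair, and that of Pou5f1 to Nanog to 1.92 and 1.91 against 2.13 and 1.86. Only the first of these ratios separated the groups, and neither was tested.

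Sall4, the zinc finger partner of OCT4 (chromosome 2, 168748332 to 168767943, minus strand), read 145 and 141 TPM in the EtOH libraries and 119 and 137 TPM in the OHT libraries. Both OHT libraries lay below the EtOH pair, replicate 1 by more (log2 difference -0.17, SE 0.11, limma adjusted p = 0.667). Nr0b1 on the X chromosome (86191764 to 86195947, plus strand) was the other member below EtOH in both libraries, with 81.7 and 82.7 TPM against 76.6 and 75.6 TPM. Its OHT libraries agreed closely (SD 0.683 TPM, n = 2), and the difference was -0.11 (SE 0.10, limma adjusted p = 0.773).

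The DNA-binding nuclear receptors ESRRB and NR5A2 had estimates of opposite sign, neither past the threshold, and the difference between them was not tested. Esrrb (chromosome 12, 86361117 to 86521628, plus strand) read 177 and 197 TPM in the EtOH libraries and 204 and 295 TPM in the OHT libraries. Replicate 1 with OHT lay just above the EtOH pair and replicate 2 far above it (log2 difference 0.39, SE 0.18, limma adjusted p = 0.526). Without OHT replicate 2 the difference was 0.13, and without OHT replicate 1 it was 0.66. Nr5a2 (chromosome 1, 136842571 to 136960448, minus strand) read 32.7 and 39.0 TPM in the EtOH libraries and 23.9 and 40.3 TPM in the OHT libraries. Its OHT libraries were the lowest and the highest of the 4, so the groups overlapped (log2 difference -0.19, SE 0.25, limma adjusted p = 0.848), and without OHT replicate 1 the difference turned to 0.17. A ratio of Esrrb to Nr5a2 taken within each library came to 5.41 and 5.05 in the EtOH pair against 8.50 and 7.33 in the OHT pair.

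Tfcp2l1 (chromosome 1, 118627945 to 118685168, plus strand) had the widest difference of the 10 with all libraries used, and also the largest error. It read 39.6 and 46.2 TPM in the EtOH libraries and 45.6 and 82.5 TPM in the OHT libraries. Only OHT replicate 2 lay above the EtOH pair (log2 difference 0.51, SE 0.27, limma adjusted p = 0.584). The difference was 0.092 without OHT replicate 2, where Nr5a2 was the widest at -0.56, and 0.93 without OHT replicate 1. Zfp42 (chromosome 8, 43295063 to 43306980, minus strand), the naive marker REX1, read 403 and 406 TPM in the EtOH libraries and 409 and 443 TPM in the OHT libraries (log2 difference 0.072, SE 0.088, limma adjusted p = 0.833). Prdm14 (chromosome 1, 13113457 to 13127163, minus strand) read 26.9 and 28.0 TPM in the EtOH libraries and 30.0 and 36.4 TPM in the OHT libraries (log2 difference 0.26, SE 0.15, limma adjusted p = 0.613). For both of these the OHT libraries lay above the EtOH pair, Zfp42 by a narrow gap in replicate 1.

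**Figure D3:**
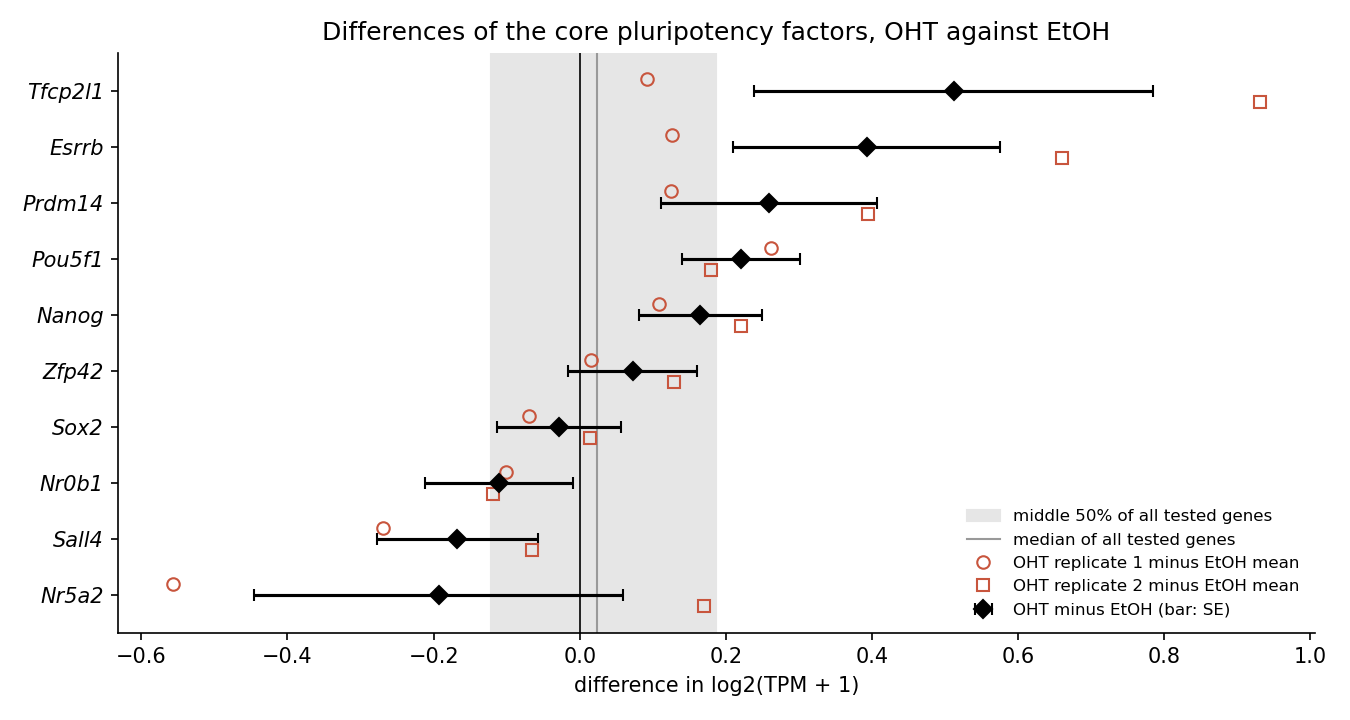
Difference in log2(TPM + 1) between OHT and EtOH (x axis) for each factor, diamonds with bars showing limma's estimate and its SE, open symbols showing each OHT library against the EtOH mean, and the grey band the middle 50% of all tested genes (-0.12 to 0.19). Pou5f1 and Nr0b1 have OHT libraries that lie close together, while those of Tfcp2l1, Nr5a2 and Esrrb lie far apart.

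The calls turned on which OHT library was kept. Without OHT replicate 1, Pou5f1, Nanog, Esrrb, Tfcp2l1 and Prdm14 passed as higher (5 of 10), as did 18.5% of all tested genes. Without OHT replicate 2, Pou5f1 passed as higher (1 of 10, beside 6.05% of all genes) and Sall4 and Nr5a2 as lower (2 of 10, beside 14.5%). In these fits the spread comes from the EtOH pair alone, and the remaining OHT library is taken to vary as much as that pair. The log2 difference of Pou5f1 was 0.18 without OHT replicate 1 and 0.26 without OHT replicate 2. Both fits rest on the same EtOH pair, in which Pou5f1 differed by only 0.0046 between replicates, so they are not separate tests. Leaving out either EtOH library gave no member call. Among the other members, Prdm14 stood at 0.39 without OHT replicate 1 and 0.12 without OHT replicate 2, Nanog at 0.22 and 0.11, and Sall4 at -0.065 and -0.27.

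The difference between the OHT libraries followed transcript length among the members as it did in the table. Of the 10 members, 8 read higher in OHT replicate 2 than in replicate 1, the exceptions being Pou5f1 and Nr0b1, which have the shortest transcripts (1362 and 1808 nucleotides, longest transcript in GENCODE M21). The gap on the log2 scale was -0.082 for Pou5f1, -0.018 for Nr0b1, 0.085 for Sox2 (2057 nucleotides), 0.11 for Zfp42 and Nanog and 0.27 for Prdm14 (2564 nucleotides). It was 0.53 for Esrrb (4300 nucleotides), 0.73 for Nr5a2 (4733) and 0.84 for Tfcp2l1 (9269), while Sall4, at 5073 nucleotides, stood at 0.20. When all tested genes were split by length into 4 groups of about equal size, the median gap was -0.026, 0.17, 0.31 and 0.48 from the shortest to the longest group. Over 12016 genes (no independent replicates) the gap followed log2 length with Pearson r = 0.53 and Spearman rho = 0.58. Esrrb, Nr5a2 and Tfcp2l1 thus lay above the median of their length group and Sall4 below it. The EtOH libraries showed the same order at a smaller size, with a median gap of 0.11 between replicate 2 and 1 in the longest group and 0.22 for Tfcp2l1, 0.25 for Nr5a2 and 0.16 for Esrrb. Sall4, also in the longest group, went the other way in EtOH, at -0.038.

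**Figure D4:**
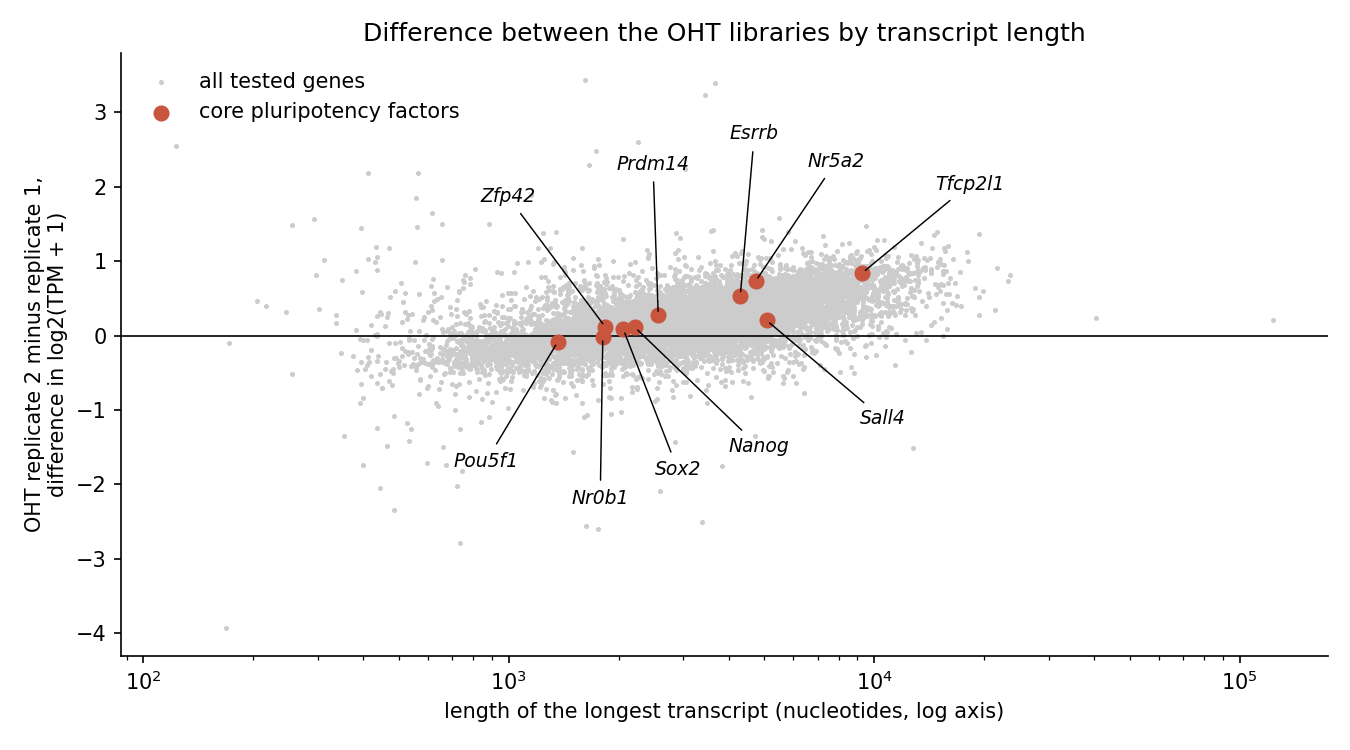
Difference in log2(TPM + 1) between OHT replicate 2 and OHT replicate 1 (y axis) against the length of each gene's longest transcript (x axis, log scale), with all tested genes in grey and the 10 factors in red. Genes with longer transcripts read higher in replicate 2, and Pou5f1 at -0.082 and Tfcp2l1 at 0.84 stand at the ends of the members' range.

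With each library's trend in length and GC content removed, all 10 members kept the sign of their difference. The log2 difference was then 0.13 for Pou5f1, 0.19 for Nanog, 0.29 for Esrrb, 0.40 for Tfcp2l1 and 0.24 for Prdm14, and -0.29 for Sall4 and -0.19 for Nr0b1. Unadjusted p was under 0.05 for 6 of 10 members, where 22.1% of genes tested that way were, and adjusted p ran from 0.130 for Tfcp2l1 to 0.665 for Sox2. No member passed, beside 1.06% of all genes.

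Other transcription factors of the same network went both ways. Of 14 such genes, all tested, 0 passed the test by limma, and the median log2 difference was -0.11. At an unadjusted p under 0.05, 3 stood higher and 2 lower (6.02% and 4.46% of all tested genes). In 5 of the 14 both OHT libraries lay above the EtOH pair, and in 5 below it (23.1% and 19.4% of all tested genes). Klf2, a Kruppel-like factor of the naive state, read 456 and 431 TPM in the EtOH libraries and 622 and 567 TPM in the OHT libraries (limma adjusted p = 0.265). Tbx3, a T-box factor downstream of LIF, read 57.3 and 58.4 TPM in the EtOH libraries and 80.5 and 106 TPM in the OHT libraries (limma adjusted p = 0.267). Mycn read 154 and 152 TPM against 113 and 130 TPM, and Zfp296 read 95.1 ± 0.117 against 77.5 ± 5.91 TPM (SD, n = 2 each), both lower in each OHT library. Of 14 genes known as targets of the core factors, 0 passed, and the median was 0.041. At an unadjusted p under 0.05, 3 stood higher and 4 lower (6.02% and 4.46% of all tested genes). In 5 of these 14 both OHT libraries lay above the EtOH pair, and in 6 below it (23.1% and 19.4% of all tested genes). Lefty1, a Nodal antagonist, read 70.2 and 62.6 TPM in the EtOH libraries and 138 and 125 TPM in the OHT libraries (log2 difference 0.97, SE 0.12, limma adjusted p = 0.0995). Dppa3, a maternal factor that protects DNA methylation, read 111 and 104 TPM against 72.2 and 58.5 TPM (log2 difference -0.72, SE 0.14, limma adjusted p = 0.211). The RNA-binding protein gene Lin28a (-0.47, SE 0.11) and the F-box gene Fbxo15 (-0.30, SE 0.084) also lay lower in both OHT libraries. Within this list, then, genes known as targets of the same factors stood on both sides of 0, with Lefty1 and Dppa3 farthest out.

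Partners and co-regulators of the core proteins had a median log2 difference of -0.031, with single genes from -0.28 (Trim28) to 0.23 (Arid3a). Of 16 tested, 0 passed, and 1 stood lower and 0 higher at an unadjusted p under 0.05 (4.46% and 6.02% of all tested genes). In 4 of the 16 both OHT libraries lay below the EtOH pair, and in 0 above it (19.4% and 23.1% of all tested genes). That gene was Trim28, a co-repressor, at 1357 and 1350 TPM in the EtOH pair against 1056 and 1178 TPM in the OHT pair (log2 difference -0.28, SE 0.090, limma adjusted p = 0.373). Rif1 (-0.27, SE 0.18), Hdac1 (-0.15, SE 0.10) and Mbd3 (-0.13, SE 0.092) followed by p. Formative epiblast genes, which come on as naive cells move toward the primed state, gave 12 tested of 14, 0 passing, 3 lower and 0 higher at an unadjusted p under 0.05 (4.46% and 6.02% of all tested genes), and a median of 0.014. The groups did not overlap in 8 of these genes, 4 higher and 4 lower in OHT (23.1% and 19.4% of all tested genes). Lef1 read 1.47 and 1.50 TPM in the EtOH libraries and 0.531 and 0.568 TPM in the OHT libraries (limma adjusted p = 0.267). Dnmt3b, a de novo methyltransferase gene that PRDM14 represses, read 74.4 and 77.9 TPM against 45.2 and 62.6 TPM (limma adjusted p = 0.397). Zic2 stood at -0.43 (SE 0.16) and Sox4 at 0.41 (SE 0.18).

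**Figure D5:**
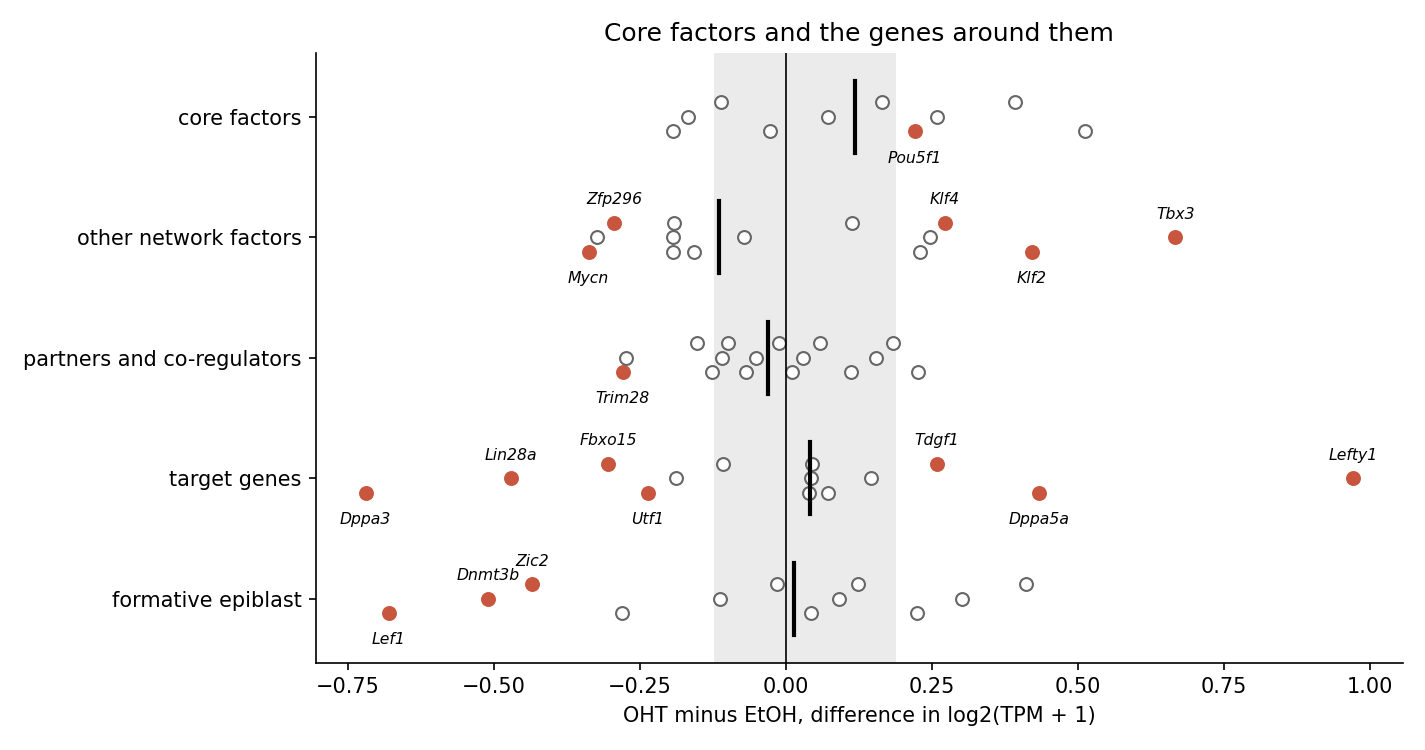
Difference in log2(TPM + 1), OHT minus EtOH (x axis), for the 10 core factors and 4 lists of genes around them, filled red where the unadjusted p is under 0.05, with a black bar at each list's median and the middle 50% of all tested genes in grey. The medians lie between -0.11 and 0.12, and Lefty1 at 0.97 and Dppa3 at -0.72 are the outermost points.

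Markers of embryonic stem cells other than the members stood high in each library, between 38.7 TPM (Epcam) and 7089 TPM (Dppa5a). The 6 markers summed to 5961 and 5853 TPM in the EtOH libraries and to 8354 and 6994 TPM in the OHT libraries, and most of that gap was Dppa5a. Without it the other 5 summed to 1228 and 1241 TPM in the EtOH libraries and to 1265 and 1371 TPM in the OHT libraries. At an unadjusted p under 0.05, 2 of the 6 stood higher and 1 lower (6.02% and 4.46% of all tested genes). These were Dppa5a (0.43, SE 0.12, limma adjusted p = 0.330), Tdgf1 (0.26) and Utf1 (-0.24), which are also in the list of target genes above. In 2 of the 6 both OHT libraries lay above the EtOH pair, and in 2 below it (23.1% and 19.4% of all tested genes).

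Most markers of other cell types were low, and several lay apart between the groups. The primitive endoderm list (9 genes) summed to 37.5 and 41.5 TPM in the EtOH libraries and 36.3 and 53.4 TPM in the OHT libraries, most of it Col4a1 and Lama1. Of its 6 tested genes, 1 stood higher at an unadjusted p under 0.05 and 0 lower (6.02% and 4.46% of all tested genes). That gene was Sox17 (1.01 and 0.657 against 1.62 and 1.40 TPM), and Gata6 read at most 0.398 TPM. Both OHT libraries lay above the EtOH pair in 2 of the 6 and below it in 1 (23.1% and 19.4% of all tested genes). Trophoblast markers (8 genes) summed to 68.6 and 69.4 TPM in the EtOH libraries and 74.8 and 81.1 TPM in the OHT libraries. Tfap2c, the most abundant of them, read 32.4 and 33.5 TPM against 31.4 and 36.6 TPM. Of 6 tested, 3 lay above the EtOH pair in both OHT libraries and 0 below it (23.1% and 19.4% of all tested genes). Among them Krt18 (9.35 and 9.96 against 13.4 and 14.5 TPM) stood higher at an unadjusted p under 0.05, as did 6.02% of all tested genes. Cdx2 read at most 0.267 TPM. The mesendoderm list (7 genes) summed to 12.1 and 11.2 TPM against 10.4 and 10.7 TPM. Of 3 tested, Gsc stood higher (0.53) and Evx1 lower (-0.77) at that unadjusted threshold (6.02% and 4.46% of all tested genes). In 2 of the 3 both OHT libraries lay above the EtOH pair, and in 1 below it (23.1% and 19.4% of all tested genes). The neuroectoderm list (5 genes) summed to 24.0 and 24.1 TPM against 20.6 and 26.1 TPM. Of 3 tested, Sox1 stood higher (0.86) and Pax6 lower (-0.95) at the same threshold, with the same shares of all genes. In 1 of the 3 both OHT libraries lay above the EtOH pair, and in 1 below it (23.1% and 19.4% of all tested genes). Fibroblast and feeder markers (10 genes) summed to 9.08 and 8.48 TPM in the EtOH libraries and 10.4 and 16.2 TPM in the OHT libraries. Of 2 tested, Thy1 stood higher at an unadjusted p under 0.05 (6.41 and 5.43 against 7.64 and 10.9 TPM), as did 6.02% of all tested genes. In 1 of the 2 both OHT libraries lay above the EtOH pair, and in 0 below it (23.1% and 19.4% of all tested genes). Postn and Twist2 were listed at 0 in all 4 libraries. Genes of the 2-cell-like state (7 genes) summed to 80.1 and 84.4 TPM in the EtOH libraries and 49.6 and 74.9 TPM in the OHT libraries. Of 6 tested, 0 were under that unadjusted threshold, where 10.5% of all tested genes were. In 3 of the 6 both OHT libraries lay below the EtOH pair, and in 0 above it (19.4% and 23.1% of all tested genes). None of the tested genes of these 6 lists passed limma's adjusted threshold, and the part of such cells in the members' values was not tested.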

How the data were processed

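The 4 libraries were made with poly(A) selection and an Ultra II RNA kit, per the labels' protocols. The submitters' processing notes name Salmon, Trim Galore and the build GRCm38 (mm10). For versions, order, annotation release and strandedness, nothing is given in the sources used here. The deposited values are TPM, scaled by the authors to 1000000 per library. A further 2 columns of values match no sample used here and were not used. Depth is unknown, so no counting interval or floor was computed.

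Differences are on the log2(TPM + 1) scale, which understates changes of low genes. Genes averaging 1 TPM or more were tested with limma 3.58.1 in R 4.3.3 (mean-variance trend, two-sided, 2 residual and 4.01 prior degrees of freedom), adjusted by Benjamini-Hochberg over all genes tested. The fit was run on simulated data with equal, independent noise in all libraries and no trend in length. In the deposited values the replicate difference had an SD over genes of 0.178 in EtOH and 0.348 in OHT. That run therefore does not show how the fit behaves on these libraries. An exact two-sided permutation test of 2 against 2 cannot go below 0.333, so none was run. The genes named are the 10 members, Cbx2, up to 4 genes per list with the smallest p, and the most abundant gene of each paralogue list. Other names (Klf4, Dppa5a, Epcam and Arid3a among them, in the text or the plots) were chosen after their values were seen. Members and lists were chosen with earlier results of these data known. Gene positions and transcript lengths come from GENCODE M21 (GRCm38), matched without version numbers for 22213 identifiers, and promoters from RefSeq (GRCm38.p6). Transcript copies were sought with blastn 2.17.0 (95% identity over at least 50% of the shorter transcript). Alternatives were pseudocounts of 0.1, 0.5 and 5, other filters, scalings and variance models, a replicate block, removal of each library's length and GC trend by regression splines, and leaving out each library.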

Additional observations from a re-analysis of the deposited data

How the results depend on the processing

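No core factor passed the threshold at pseudocounts of 0.1, 0.5 and 5, without a filter on low values, at a minimum of 5 TPM, under either scaling, without the trend, with robust moderation, after removal of the trend in length and GC content, or without either EtOH library. With a replicate block 2 passed, Esrrb (adjusted p = 0.0435) and Tfcp2l1 (0.0267), both higher, beside 474 genes in all (3.94%). The labels give shared numbers but no shared culture, so the block is not part of the labelled design. Differences between replicates correlated across genes between the groups (r = 0.29), and in both groups their median rose with transcript length. Whether libraries of the same number were paired was not tested. The sign of Sox2 turned under quantile normalization (0.028). Tfcp2l1 ran from 0.092 to 0.93 and Esrrb from 0.13 to 0.66 when each library was left out. Leaving out each library, Sox2 ran from -0.070 to 0.014 and Nr5a2 from -0.56 to 0.17, with the sign turned without OHT replicate 1 in both. Leaving out each library gave 0 to 5 members called, 34 to 2957 calls over all genes, and a median of the members from 0.054 to 0.18. Over all genes 5 calls were made, 0 without a filter (1838 genes at an unadjusted p under 0.05), 3 each under median of ratios scaling, quantile normalization and no trend, and 127 after removal of the trend in length and GC content. The number of libraries, 2 per group, limits the precision, and depth is unknown.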

Other observations

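Most paralogues of the core factors stood well below the factors themselves in these cells. Among 11 other POU genes the most abundant was Pou2f1 (11.6 and 15.6 TPM in the EtOH libraries, 10.1 and 22.2 TPM in the OHT libraries), and Pou4f2 had the smallest p (8.02 and 8.02 against 4.55 and 6.18 TPM, limma adjusted p = 0.454). Pou5f2, the closest relative of Pou5f1 by name, stayed at or under 0.207 TPM. Of 10 other SOX genes, all tested, Sox13 was the most abundant (23.9 and 24.1 TPM in the EtOH libraries, 20.4 and 27.0 TPM in the OHT libraries). Sox1, which shares its subgroup with Sox2 and marks neural cells, read 3.10 and 2.62 TPM in the EtOH libraries and 5.28 and 6.77 TPM in the OHT libraries (log2 difference 0.86, SE 0.20, limma adjusted p = 0.267). Sall1 stood nearer to its member Sall4, with 76.6 and 85.6 TPM in the EtOH pair against 74.3 and 122 TPM in the OHT pair. Esrrg was listed at 0 in all 4 libraries and Nr5a1 stayed at or under 0.0932 TPM, while Esrra read 9.37 and 9.12 TPM in the EtOH libraries and 12.6 and 9.82 TPM in the OHT libraries. Yy1, a relative of Zfp42, read 40.7 and 43.5 TPM in the EtOH libraries and 35.7 and 42.5 TPM in the OHT libraries. Ubp1, a relative of Tfcp2l1, stood at a level like that of its member, with 48.2 and 50.5 TPM against 42.8 and 63.0 TPM, and of the PRDM genes Prdm4 led with 24.4 and 27.0 TPM against 20.0 and 26.7 TPM. Of 42 paralogues 32 were tested and 0 passed limma's test, while 2 stood higher (Sox1 and Sox17) and 1 lower (Pou4f2) at an unadjusted p under 0.05 (6.02% and 4.46% of all tested genes). Both OHT libraries lay above the EtOH pair in 12 of the 32 and below it in 2 (23.1% and 19.4% of all tested genes).

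Near-identical stretches exist for 4 members. Nanog shares 245 nucleotides at 97.6% identity with the pseudogene Nanog-ps1, and Zfp42 shares 266 nucleotides at 98.1% with Zfp42-ps1. Sall4 shares 238 nucleotides with the overlapping opposite-strand transcript Gm14261, and Tfcp2l1 shares 130 with a small nuclear RNA gene inside it. Sox2 lies within the span of the noncoding gene Sox2ot, and Pou5f1 overlaps the antisense gene Gm19553. No values were listed for these 6 genes, and a split of reads with them was not tested.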
